A study of Mus musculus with 11 samples.

Results

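INTS9 and INTS11 are the partner subunits of the cleavage module of Integrator, a complex that binds RNA polymerase II. INTS11 carries the endonuclease that cuts nascent RNA, and INTS9 is its catalytically inactive relative and dimer partner. The module is best known for cutting the 3′ ends of spliceosomal small nuclear RNA (snRNA) precursors near a short sequence called the 3′ box, and it also ends transcription early at many protein-coding genes. Since the paired subunits act as a heterodimer, the question put to the data was where on the genome the marks left by one fusion protein differed from those left by the other.

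The chosen libraries were the 2 labelled INTS9 and INTS11, out of 11 in the series, each with 1 library and no replicate. The series used HITseq, in which a protein is fused to the integrase-binding domain of LEDGF and HIV integration sites stand in for its binding sites on chromatin. Both groups were C57BL/6 mouse embryonic fibroblasts lacking LEDGF (LEDGF-/-), the host factor that normally guides HIV integrase, and each was electroporated with a plasmid for 1 fusion protein, INTS9 or INTS11. They were infected with HIV after 24 hours and grown for 3 more days. The plasmid made the fusion protein beside the cells' own Integrator, and no library of the LEDGF domain alone was analysed here, so a density over uniform holds both the protein's targeting and what integration does by itself. All 9 other libraries carried the same genotype with another fusion protein.

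A site was a distinct chromosome, position and strand of the mm9 mouse genome. INTS9 had 197069 sites and INTS11 had 33939, of 831994 in the whole series. The INTS11 library came from 1 lane of a GAIIx flow cell. INTS9 had 20430 sites from the adjacent lane of that same flow cell and 176683 from a HiSeq run. The shared flow cell thus allowed a comparison on 1 instrument, and the 2 INTS9 runs gave the spread between runs of 1 labelled library. The labels do not say whether both runs came from 1 infection or 1 DNA sample. The HiSeq and shared flow cell parts of INTS9 had 44 positions in common, 0.215% of the smaller part, so nearly every site was seen in 1 run alone. INTS9 shared 106 positions with INTS11, 0.312% of the INTS11 sites. With 1 library on each side no test between proteins is possible; the intervals below are exact or score intervals at 95% and cover counting error only.

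Of the marker lists for cell types, the fibroblast list stood highest in both libraries. Sites lay around 13 fibroblast marker genes (collagens, vimentin and others) at 3.32-fold uniform density in INTS9 (2.76 to 3.95) and 2.75-fold in INTS11 (1.63 to 4.35). Blood markers stood at 0.988-fold in INTS9 and 0.546-fold in INTS11, the latter on 2 sites (0.0662 to 1.97). Hepatocyte markers stood at 0.792-fold in INTS9 and 0.657-fold in INTS11, the latter on 1 site (0.0166 to 3.66). Neuron markers stood at 0.993-fold in INTS9 and 1.15-fold in INTS11 (0.683 to 1.82). The 3 germ cell markers stood at 0.580-fold in INTS9 and 0.673-fold in INTS11, the latter on 1 site (0.0170 to 3.75). In INTS11 the fibroblast interval overlapped that of each other list, so the order there is uncertain.

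The bases at the junctions differed between the libraries, and this touches every result that follows. HIV integrase joins both viral ends to host DNA with a stagger, copies the 5 bases between the cuts and prefers a weak palindrome there, with G at the first and C at the fifth copied base. On the shared flow cell, G stood at the first base in 44.2% of INTS9 sites, against 33.0% of INTS11 sites. C stood at the fifth base in 41.5% of INTS9 sites on the shared flow cell and in 34.9% of INTS11 sites. A site with either of these is called here a site with a preferred base. Such sites made up 66.0% of INTS9 (65.8 to 66.3), 65.8% of its HiSeq run and 68.5% of its part on the shared flow cell (67.9 to 69.2), against 55.7% of INTS11 (55.2 to 56.2). The same pair of positions moved 50 bases into the host DNA gave 38.5% in INTS9 and 38.2% in INTS11, the level of the local sequence. INTS11 had the lowest share of the 11 libraries; the others ran from 57.0% in INIP to 70.3% in INTS3, with a median of 68.1%. In INTS11 the share was 65.8% within 5 kb of gene starts and 50.1% farther than 5 kb from genes, whereas in INTS9 on the shared flow cell it was 71.6% near starts and 66.4% far from genes. Results are therefore also given for sites with a preferred base alone; why the libraries differ in this was not tested.

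The sequences below are the 3′ ends of the 7 clustered snRNA and U3 copies with a match to the 3′ box, shown because that box is where the cleavage module is known to act. They are not the copies with most sites: U1 at 87240218 on chromosome 11, with 51 sites within 5 kb in INTS9 and 24 in INTS11, has no match. Each line runs from the last 20 bases of the gene model through the 40 bases after it, on the gene's strand in mm9, and capitals mark the match to GTTTNNNAAANNNAGA, allowing 0 to 3 bases at the first run of N.
U5, chr9:65049493-65049552, minus strand: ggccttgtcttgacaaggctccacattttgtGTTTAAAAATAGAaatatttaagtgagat
U2, chr11:101466335-101466394, plus strand: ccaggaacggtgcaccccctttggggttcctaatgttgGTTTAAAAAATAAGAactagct
U2, chr11:101488851-101488910, plus strand: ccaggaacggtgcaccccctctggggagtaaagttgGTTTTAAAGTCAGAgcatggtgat
U2, chr11:101519723-101519782, plus strand: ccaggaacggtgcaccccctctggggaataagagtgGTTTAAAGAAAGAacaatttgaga
U3, chr11:87256933-87256992, plus strand: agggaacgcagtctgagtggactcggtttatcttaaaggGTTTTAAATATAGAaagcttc
U3, chr11:87275982-87276041, plus strand: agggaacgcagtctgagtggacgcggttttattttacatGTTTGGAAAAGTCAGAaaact
U3, chr11:87285064-87285123, plus strand: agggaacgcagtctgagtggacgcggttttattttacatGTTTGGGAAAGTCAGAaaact
The motif was searched on the gene's strand only. It stood in 11 of 368 copies named U1, U2, U3, U4, U5, U11 or U12 (2.99%), in 0 of 935 copies of U6, in 12 of 2974 small RNA genes in all (0.404%) and in 5 of 22350 protein-coding genes (0.0224%) over the same 40 bases. U6, the spliceosomal RNA made by RNA polymerase III, is the member of the snRNA family that Integrator is not known to process. A match describes these letters only.

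Most annotated snRNA copies are scattered pseudocopies, and the sites gathered at copies that lie in clusters. Of the 368 copies, 51 lay within 50 kb of another, in 16 clusters. With 5 kb on each side of every copy, the 51 clustered copies held 440 sites in INTS9, 304 in its HiSeq run and 138 in its part on the shared flow cell, against 193 in INTS11. That was 12.9-fold uniform density in INTS9 (11.7 to 14.2), against 32.9-fold in INTS11 (28.4 to 37.9), a ratio of 0.393 (0.331 to 0.467). On the shared flow cell the order was not kept, with 39.1-fold in INTS9 (32.9 to 46.2) against 32.9-fold in INTS11, a ratio of 1.19 (0.948 to 1.49). The HiSeq run of INTS9 stood at 9.96-fold, 0.255 times the shared flow cell part of the same library (0.208 to 0.314). So INTS9 on 1 instrument differed from itself on the other by more than INTS9 differed from INTS11 on the shared flow cell.

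The same shift between instruments appeared in the other libraries read on both. Around the clustered copies NABP1 had 15.2-fold in its HiSeq run against 22.9-fold in its GAIIx run, a ratio of 0.666 (0.565 to 0.784). NABP2 had 21.7-fold in its HiSeq run against 58.5-fold in its GAIIx run, a ratio of 0.370 (0.303 to 0.454). Instrument, read length, run and any separate infection behind a run go together here and cannot be told apart. The 317 single copies showed a much smaller excess, 1.47-fold in INTS9, 1.43-fold in its HiSeq run and 1.79-fold on the shared flow cell, against 2.34-fold in INTS11. The U6 copies stood at 1.39-fold in INTS9 and 1.44-fold in INTS11, a ratio of 0.963 (0.821 to 1.14). Among sites with a preferred base on the shared flow cell, the log2 ratio of INTS9 over INTS11 at the clustered copies was -0.23 (-0.62 to 0.17).

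**Figure D1:**
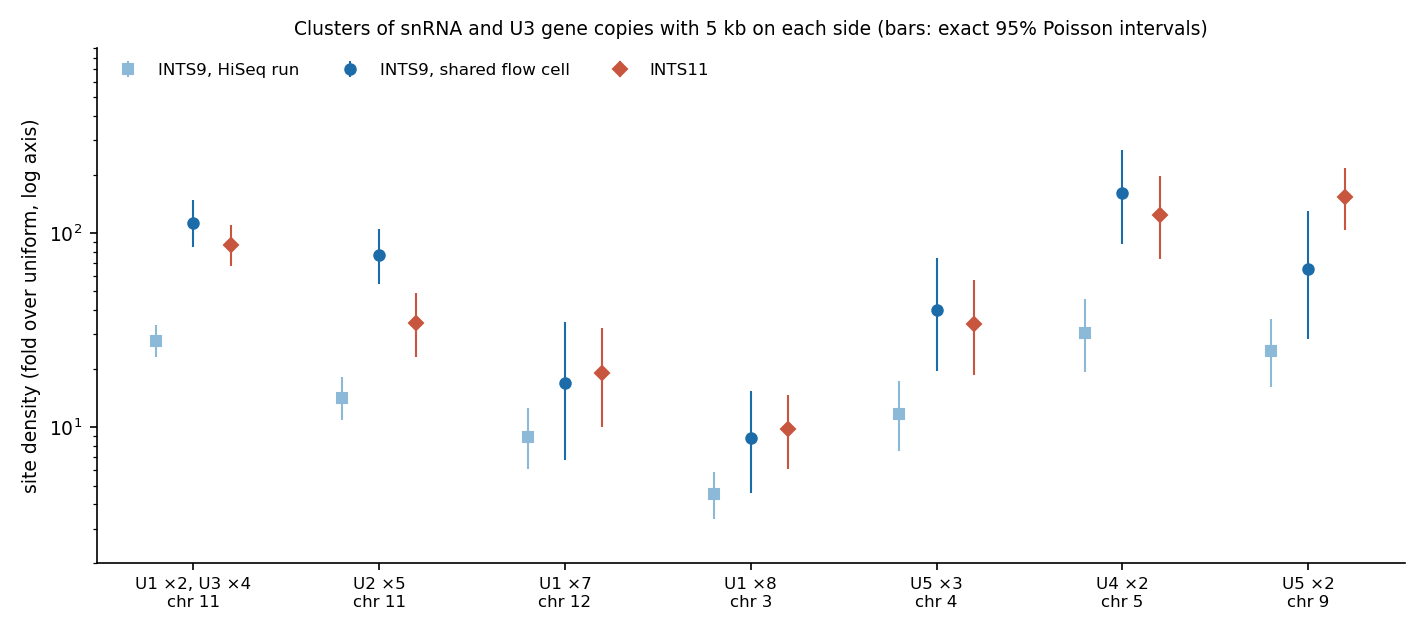
Site density (fold over uniform, log axis) at the 7 clusters of snRNA and U3 gene copies with at least 5 INTS11 sites, with 5 kb on each side of the cluster's span, for the HiSeq run of INTS9, the INTS9 part on the shared flow cell and INTS11; bars are exact 95% Poisson intervals. The HiSeq run of INTS9 is lowest at each of the 7 clusters, while INTS9 on the shared flow cell is above INTS11 at 4 clusters and below it at 3.

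At single clusters, whose span with 5 kb on each side was counted, the shared flow cell showed both directions. The U2 cluster on chromosome 11 (5 copies, chr11:101466164-101519742) had 190.9 sites per 100000 in INTS9 on the shared flow cell and 35.1 in its HiSeq run, against 85.4 in INTS11. The ratio on the shared flow cell was 2.23 (1.35 to 3.75), higher in INTS9. The U5 pair on chromosome 9 (chr9:65044379-65049648) went the other way, with 39.2 sites per 100000 in INTS9 on the shared flow cell and 14.7 in its HiSeq run, against 91.3 in INTS11. There the ratio on the shared flow cell was 0.429 (0.170 to 0.953), on 8 sites in INTS9 and 31 in INTS11, and it was 0.183 (0.109 to 0.310) over all INTS9 sites. U2 RNA recognises the branch point of introns and U5 RNA holds the exons for ligation. These 2 clusters were singled out after their values were seen, as those of the 16 whose interval on the shared flow cell left out 1.

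Of the remaining clusters, those with a site in either library on the shared flow cell gave intervals that held 1. The others had 0 sites in both there and gave no interval. The cluster of 2 U1 and 4 U3 copies on chromosome 11 (chr11:87236369-87285083) had 259.4 sites per 100000 in INTS9 on the shared flow cell and 64.0 in its HiSeq run, against 200.4 in INTS11. The pair of U4 copies on chromosome 5 (chr5:115939468-115940403) had 68.5 in INTS9 on the shared flow cell and 13.0 in its HiSeq run, against 53.0 in INTS11. U1 RNA recognises 5′ splice sites, U4 RNA keeps U6 inactive until the spliceosome is activated, and U3 is a small nucleolar RNA of ribosomal RNA processing. The run of 8 U1 copies on chromosome 3 (chr3:96132348-96292816) was less dense per length, with 58.7 sites per 100000 in INTS9 on the shared flow cell and 30.0 in its HiSeq run, against 64.8 in INTS11. The 5 pairs of U3 copies on chromosome X held 0 sites in either library. Copies in these families are nearly identical, so reads from one can be lost or placed at another, and a count at a single copy is uncertain.

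Sites around the clustered copies lay downstream of the gene more than upstream, and this asymmetry too followed the run. Downstream here means past the 3′ end of the nearest copy. Of sites within 5 kb and outside the copy, 85.3% were downstream in INTS9 on the shared flow cell (78.2 to 90.8) and 60.9% in its HiSeq run (55.1 to 66.4), against 83.2% in INTS11 (77.1 to 88.2). The first kb past the 3′ end, where the 3′ boxes printed above lie, held 328 sites per 100000 in INTS9 on the shared flow cell (254 to 416) and 18.1 in its HiSeq run (12.4 to 25.6), against 183 in INTS11 (140 to 234). The second kb held 195.8 in INTS9 on the shared flow cell and 48.1 in its HiSeq run, against 215 in INTS11. The intervals of the first and second kb overlapped in INTS9 on the shared flow cell and in INTS11, and did not in the HiSeq run of INTS9, where the first kb was lower. The first kb upstream held 34.3 in INTS9 on the shared flow cell and 32.3 in its HiSeq run, against 56.0 in INTS11. In the second kb upstream INTS9 had 44.1 on the shared flow cell (20.1 to 83.6) and 17.5 in its HiSeq run (11.9 to 24.9), against 23.6 in INTS11. In the other libraries read on both instruments the first kb downstream held 16 sites of 278 in the HiSeq run of NABP1 against 69 of 327 in its GAIIx run, and 16 of 273 in the HiSeq run of NABP2 against 69 of 155 in its GAIIx run.

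**Figure D2:**
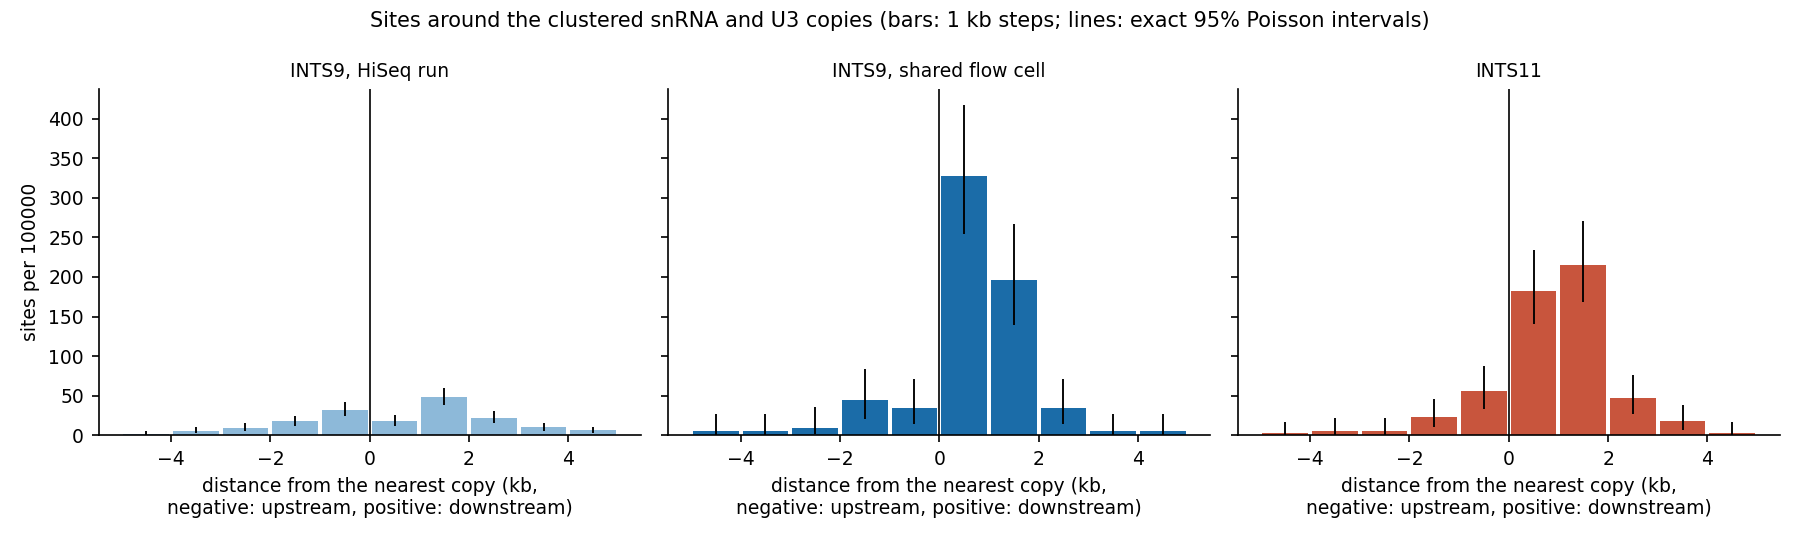
Sites per 100000 by distance from the nearest clustered snRNA or U3 copy in steps of 1 kb in the direction of transcription, for the HiSeq run of INTS9, INTS9 on the shared flow cell and INTS11; black lines are exact 95% Poisson intervals. The first kb downstream holds 328 sites per 100000 in INTS9 on the shared flow cell and 183 in INTS11, and 18.1 in the HiSeq run of INTS9.

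Among the 7 copies printed above, no single motif stood with the higher counts. The U3 copy at 87275788 with GTTTGGAAAAGTCAGA had 14 sites within 5 kb in INTS9 on the shared flow cell against 10 in INTS11, and the copy at 87284870 with GTTTGGGAAAGTCAGA had 6 in INTS9 on the shared flow cell against 15 in INTS11. The U2 copy at 101519552 with GTTTAAAGAAAGA had 12 in INTS9 on the shared flow cell against 6 in INTS11, and the U5 copy at 65049533 with GTTTAAAAATAGA had 4 in INTS9 on the shared flow cell against 19 in INTS11. Over the 11 copies with the motif, density was 22.7-fold uniform in INTS9 and 64.3-fold in its part on the shared flow cell, against 61.1-fold in INTS11. On the shared flow cell the ratio was 1.05 (0.741 to 1.48).

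Around the starts of the 22350 protein-coding genes, INTS11 sites were denser than INTS9 sites in the first kb of the transcribed region. Over uniform density the first kb downstream of starts stood at 4.69-fold in INTS9 (4.59 to 4.79), 4.82-fold in its HiSeq run and 3.63-fold in its part on the shared flow cell (3.35 to 3.92), against 5.43-fold in INTS11 (5.17 to 5.70). The ratio of INTS9 over INTS11 was 0.864 (0.818 to 0.912) over all INTS9 sites and 0.668 (0.609 to 0.732) on the shared flow cell. The HiSeq run of INTS9 was 1.33 times its own part on the shared flow cell (1.23 to 1.44), and the spread between runs was of the same order as the gap between proteins. In the first kb upstream the values were 3.89-fold in INTS9 and 3.39-fold on the shared flow cell, against 3.86-fold in INTS11.

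Among sites without a preferred base the gap in the first kb downstream of starts was narrow. The ratio of INTS9 over INTS11 was 0.998 (0.902 to 1.11) over all INTS9 sites, an interval that held 1. On the shared flow cell it was 0.834 (0.694 to 0.997). The gap at starts was wider among sites with a preferred base. There the first kb downstream held 5.28-fold uniform density in INTS9, 5.45-fold in its HiSeq run and 3.94-fold on the shared flow cell, against 6.93-fold in INTS11. The ratio was 0.762 (0.715 to 0.812) over all INTS9 sites and 0.568 (0.509 to 0.632) on the shared flow cell. The highest bin of 200 bases lay 400 to 600 bases downstream in INTS9 as a whole, at 5.75-fold, and 800 to 1000 bases downstream in INTS9 on the shared flow cell, at 5.35-fold, against 8.50-fold in the same bin in INTS11. Among sites with a preferred base, both libraries on the shared flow cell thus had their highest bin at the same distance and differed in height. That bin held 131 sites in INTS9 on the shared flow cell and 281 in INTS11. Without a preferred base the highest bin lay 800 to 1000 bases downstream in INTS9 on the shared flow cell and 400 to 600 in INTS11.

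**Figure D3:**
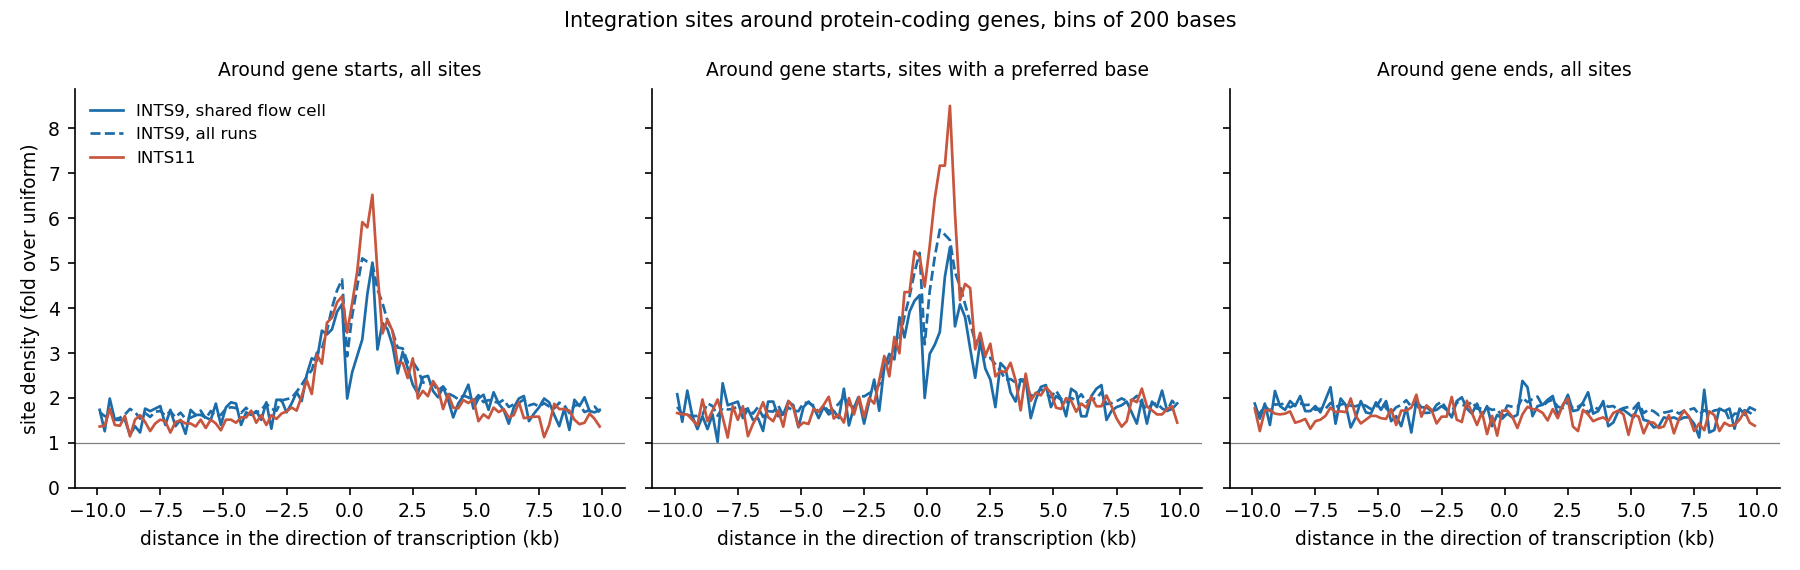
Site density (fold over uniform, bins of 200 bases) by distance in kb from the starts of protein-coding genes for all sites (left) and for sites with a preferred base (middle), and from their ends for all sites (right), in INTS9 on the shared flow cell (solid blue), INTS9 over all runs (dashed blue) and INTS11 (red). INTS11 rises above both INTS9 lines just downstream of starts, to 6.52-fold for all sites and 8.50-fold for sites with a preferred base, and no line has a peak at gene ends.

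As shares of sites, 6.84% of INTS9 sites, 6.98% of its HiSeq run and 5.67% of its shared flow cell part lay within 1 kb of a start, against 7.35% of INTS11 sites and 1.65% of the genome. The difference, INTS9 minus INTS11, was -0.505 percentage points (-0.808 to -0.210) over all INTS9 sites and -1.68 (-2.10 to -1.25) on the shared flow cell. Both libraries were low among the series, in which the other 9 ran from 3.86% to 22.9% with a median of 13.4%. Within 5 kb of starts the order depended on the run, with 20.3% in INTS9 and 18.4% in its shared flow cell part, against 19.7% in INTS11. That difference was 0.682 points (0.220 to 1.14) over all INTS9 sites and -1.24 (-1.92 to -0.563) on the shared flow cell. From 1 to 5 kb upstream of starts INTS9 stood at 2.04-fold against 1.80-fold in INTS11. The ratio there was 1.13 (1.08 to 1.18) over all INTS9 sites and 1.11 (1.04 to 1.19) on the shared flow cell. From 1 to 5 kb downstream it was 1.07 (1.03 to 1.11) over all INTS9 sites and 0.972 (0.916 to 1.03) on the shared flow cell. Why the order depended on the run was not tested.

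At gene ends, where cleavage and termination take place, neither library had a peak, and INTS9 was slightly denser throughout. The first kb past ends held 1.87-fold uniform density in INTS9 and 1.89-fold on the shared flow cell, against 1.61-fold in INTS11, with ratios of 1.16 (1.05 to 1.28) and, on the shared flow cell, 1.17 (1.02 to 1.35). The zone 5 to 10 kb past ends held 1.70-fold in INTS9 and 1.57-fold on the shared flow cell, against 1.46-fold in INTS11. Density fell with distance past the end by nearly the same factor, since the first kb stood 1.1002 times the zone of 5 to 10 kb in INTS9 and 1.21 times on the shared flow cell, against 1.104 times in INTS11. Among sites with a preferred base the first kb past ends held 2.003-fold in INTS9 and 2.04-fold on the shared flow cell, against 1.81-fold in INTS11, and the ratio on the shared flow cell was 1.13 (0.9503 to 1.34). Within 5 kb of ends lay 12.8% of INTS9 sites and 12.6% of its shared flow cell part, against 11.2% of INTS11 sites, the last below the 11.6% to 21.2% of the other 9 libraries.

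Along genes of at least 20 kb, 9711 in number and each cut into 10 equal lengths, the first such length held the most sites in both libraries. It took 17.8% of INTS9 sites in such genes (17.6 to 18.1), 18.1% in its HiSeq run and 15.8% on the shared flow cell (15.04 to 16.5), against 19.1% in INTS11 (18.5 to 19.7). From the third length on, every value in INTS9 and in INTS11 lay between 8.19% and 9.94%, with no increase toward the 3′ end, and the final length held 8.43% in INTS9 and 8.19% in INTS11. Among sites with a preferred base the first length held 18.6% in INTS9 and 16.0% on the shared flow cell, against 21.4% in INTS11. Without a preferred base it held 16.3% in INTS9 and 15.3% on the shared flow cell, against 16.0% in INTS11. In genes of at least 100 kb the difference for all sites was -0.185 points (-1.04 to 0.639) over all INTS9 runs. On the shared flow cell the first length of these genes held 13.4% in INTS9 (12.5 to 14.4), against 14.9% in INTS11 (14.2 to 15.7). The provirus lay in the gene's own direction in 50.5% of INTS9 sites in genes of at least 20 kb and 49.9% on the shared flow cell (48.9 to 50.9), against 51.9% in INTS11 (51.1 to 52.7).

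Far from genes INTS11 again had the larger share. Farther than 5 kb from any protein-coding gene lay 35.4% of INTS9 sites, 35.2% of its HiSeq run and 36.7% of its shared flow cell part, against 39.7% of INTS11 sites. With INTS9 thinned to 33939 sites in 10 draws, its share ran from 34.8% to 35.7%, below the INTS11 value in each draw. The difference was -4.30 points (-4.86 to -3.74) over all INTS9 sites and -2.95 (-3.79 to -2.11) on the shared flow cell, larger than the -1.51 (-2.21 to -0.810) between the HiSeq run of INTS9 and its part on the shared flow cell. Farther than 100 kb lay 13.7% of INTS9 sites and 14.9% on the shared flow cell, against 17.6% of INTS11 sites. The median distance of sites outside genes from the nearest protein-coding gene was 32.3 kb in INTS9 and 35.8 kb on the shared flow cell, against 46.9 kb in INTS11.

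The gap far from genes was wide among sites without a preferred base and narrow among sites with one. Without one, 39.3% of INTS9 sites on the shared flow cell and 44.7% of INTS11 sites were farther than 5 kb from genes, a difference of -5.40 points (-6.83 to -3.97). Among sites with a preferred base the shares were 35.5% in INTS9 on the shared flow cell and 35.7% in INTS11, a difference of -0.139 (-1.18 to 0.908). The share inside genes behaved alike: for all sites it was 54.7% in INTS9 and 53.6% on the shared flow cell, against 51.4% in INTS11, and with a preferred base the difference on the shared flow cell was 0.00578 points (-1.08 to 1.09). Against all INTS9 sites the difference far from genes with a preferred base was -1.97 (-2.70 to -1.24), close to the -2.05 (-2.89 to -1.22) that separated the HiSeq run of INTS9 from its own shared flow cell part. Farther than 50 kb from genes a difference remained among sites with a preferred base on the shared flow cell, -1.06 points (-1.93 to -0.191). Mean GC content within 500 bases of sites was 44.2% in INTS9 and 43.4% on the shared flow cell, against 43.7% in INTS11 and 41.8% over the genome.

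**Figure D4:**
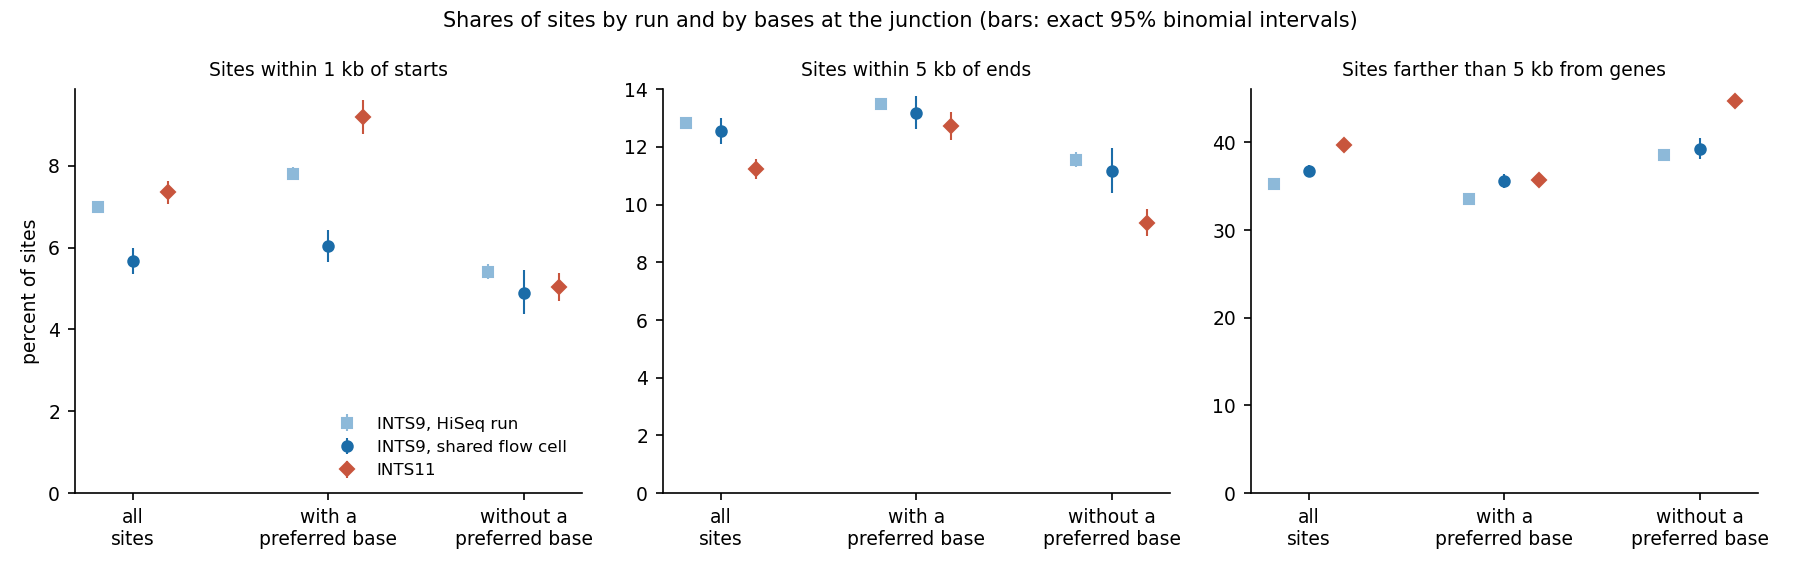
Percent of sites within 1 kb of starts, within 5 kb of ends and farther than 5 kb from protein-coding genes, for all sites and for sites with and without a preferred base, in the HiSeq run of INTS9, INTS9 on the shared flow cell and INTS11; bars are exact 95% binomial intervals. Far from genes, INTS9 on the shared flow cell and INTS11 stand at 35.5% and 35.7% among sites with a preferred base, and at 39.3% and 44.7% among sites without one; near starts they stand at 6.03% and 9.19% among sites with one.

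Chromosome X, low in the whole series, was less depleted in INTS11. It held 3.36% of INTS9 sites and 4.05% on the shared flow cell (3.78 to 4.33), against 4.53% of INTS11 sites (4.31 to 4.75), where the other 9 libraries ran from 2.54% to 3.68%. Among sites with a preferred base it held 3.13% in INTS9 and 3.88% on the shared flow cell (3.56 to 4.21), against 4.21% in INTS11 (3.92 to 4.50), and the last intervals overlap. The 200 protein-coding genes of at least 500 kb stood at 0.703-fold uniform density in INTS9 and 0.751-fold on the shared flow cell, against 0.812-fold in INTS11, above the 0.524 to 0.780 of the other 9.

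Gene by gene, 299 genes had a mean of at least 20 sites per 100000 over the libraries with 5 kb on each side, and most were long, with a median of 400.4 kb. A gene was called when the ratio, with 1 site per 100000 added to each side, passed 2-fold and its exact interval left out 1. By that rule 2 genes (0.669% of those tested) were higher in INTS9 and 33 (11.0%) were higher in INTS11. On the shared flow cell, where 366 genes passed the minimum, 11 (3.01%) were higher in INTS9 and 6 (1.64%) were higher in INTS11. Between the runs of INTS9, 0 of 319 genes (0.00%) were higher in the HiSeq run and 37 (11.6%) were higher in the shared flow cell part. Over the same 299 genes, 5 (1.67%) were higher in INTS9 and 8 (2.68%) in INTS11 on the shared flow cell, and between the INTS9 runs 1 (0.334%) was higher in the HiSeq run and 25 (8.36%) in the shared flow cell part. By fold alone, 3 were past 2-fold toward INTS9 and 43 (14.4%) toward INTS11, which became 48 (13.1%) and 30 (8.20%) on the shared flow cell, and 5 (1.57%) toward the HiSeq run and 63 (19.7%) toward the shared flow cell part between the INTS9 runs. The 33 calls toward INTS11 thus stood at nearly the share that the runs of 1 library gave. Of the 33, 25 kept their direction on the shared flow cell and 4 were called there. The median count a gene was 46 sites in INTS9 and 9 in INTS11.

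Of the calls toward INTS11, snRNA and snoRNA genes made up 13 of 33, of 15 such genes tested, and share sites where their windows overlap; the shared flow cell values above apply to them. Of the 33, 17 were protein-coding and the other 3 were longer noncoding RNAs. The 33 had a median length of 10.3 kb. Of them, 12 were at least 300 kb, against 189 of the 299 tested. The minimum was set on the mean of INTS9 and INTS11, so a gene low in INTS9 passed it through its INTS11 value and had to differ. With the minimum set on the 9 other libraries, 37 of 479 genes were higher in INTS11, and they held 17 of the 33. The values that follow are therefore descriptions; in the 9 other libraries Sgcz had a median of 10.1 sites per 100000, Hs6st3 9.69, Thsd7a 13.4, Adamtsl1 8.49 and Fam155a 10.7. Sgcz, a sarcoglycan of muscle membranes, had 10.7 sites per 100000 in INTS9 and 24.5 on the shared flow cell, against 35.4 in INTS11, a ratio of 0.301 (0.142 to 0.672) and, on the shared flow cell, 0.692 (0.191 to 2.11). Hs6st3, a heparan sulfate sulfotransferase, had 12.2 in INTS9 and 19.6 on the shared flow cell, against 35.4 in INTS11, and Thsd7a, a membrane protein with thrombospondin domains, had 13.7 in INTS9 and 9.79 on the shared flow cell, against 38.3 in INTS11. Adamtsl1 and Fam155a each had 11.7 in INTS9 and 14.7 on the shared flow cell, against 32.4 in INTS11. The short gene A230083G16Rik had 9.64 in INTS9 and 19.6 on the shared flow cell, against 32.4 in INTS11. Its median in the 9 other libraries was 21.3, between the values of INTS9 and INTS11. For all 6 the interval on the shared flow cell held 1.

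Both genes called toward INTS9 lay on chromosome 18 and were also higher on the shared flow cell. Fhod3, a formin that assembles actin filaments, had 34.5 sites per 100000 in INTS9 and 34.3 on the shared flow cell, against 5.89 in INTS11, which is 68 sites in INTS9, 7 of them on the shared flow cell, and 2 in INTS11. Its ratio was 5.86 (1.56 to 49.3) over all INTS9 sites and 5.81 (1.11 to 57.4) on the shared flow cell. Arhgap26, a GTPase-activating protein, had 35.5 in INTS9 and 44.1 on the shared flow cell, against 11.8 in INTS11, a ratio of 3.01 (1.13 to 11.4). The medians of the other 9 libraries were 12.9 for Fhod3 and 22.6 for Arhgap26, between the values of INTS9 and INTS11. Fhod3 passed the minimum through its INTS9 value. With the minimum set on the 9 other libraries Fhod3 was not tested, and 1 of the 2 calls was kept. With INTS9 thinned to the size of INTS11 in 1 draw, 3 of 336 genes (0.893%) were called toward INTS9. Neither Fhod3 nor Arhgap26 was among them.

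The genes with most sites, ranked by the mean of INTS9 and INTS11, were mainly very long. Gm20388, a gene model of 4434.9 kb on chromosome 8, had 511.5 sites per 100000 in INTS9 and 474.8 on the shared flow cell, against 380.1 in INTS11. Fgfr2, a fibroblast growth factor receptor gene with a model of 3009.1 kb, had 104.5 in INTS9 and 112.6 on the shared flow cell, against 94.3 in INTS11. Tex14 had 94.9 in INTS9, 75.8 in its HiSeq run and 264.3 on the shared flow cell, against 215.1 in INTS11, and its window holds the chromosome 11 cluster of U1 and U3 copies. Dmd, the dystrophin gene on chromosome X, had 41.6 in INTS9 and 78.3 on the shared flow cell, against 103.1 in INTS11, a ratio of 0.403 (0.269 to 0.618) and, on the shared flow cell, 0.759 (0.392 to 1.41). Magi2, a synaptic scaffold gene, and Arfip1, an arfaptin gene, were lower in INTS9 on the shared flow cell, with 24.5 for Magi2 and 19.6 for Arfip1, against 73.7 and 64.8 in INTS11; their ratios there were 0.332 (0.0993 to 0.884) for Magi2 and 0.302 (0.0757 to 0.889) for Arfip1. In the HiSeq run of INTS9 they had 41.3 and 48.1. Macrod2, Pde4d and Lpp gave intervals that held 1 in both comparisons. An exception in length was the U5 copy at 65044379 on chromosome 9, of 0.116 kb. It had 14.2 sites per 100000 in INTS9 and 39.2 on the shared flow cell, against 88.4 in INTS11. Its ratio was 0.161 (0.0925 to 0.278) and, on the shared flow cell, 0.443 (0.175 to 0.989).

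Replication-dependent histone genes, whose messages end in a stem-loop cut by a related nuclease complex rather than by polyadenylation, were denser in INTS11 in every run. Around the 67 genes lay 239 sites in INTS9, 19 of them on the shared flow cell, and 75 in INTS11. That was 8.06-fold uniform density in INTS9 (ratio to INTS11 0.549, 0.422 to 0.721), 8.28-fold in its HiSeq run and 6.18-fold on the shared flow cell (ratio 0.421, 0.240 to 0.704), against 14.7-fold in INTS11. The other 9 libraries had a median of 35.5-fold, so both were below the middle of the series. The 2 members with most sites were Hist1h2ac, with 3.04 sites per 100000 in INTS9 against 23.6 in INTS11, and Hist2h3c1, with 9.64 in INTS9 against 14.7 in INTS11. H2afx, a histone gene with both message forms, had 5 sites in INTS9, 0 of them on the shared flow cell, and 6 in INTS11. No histone gene reached the minimum for the test of single genes. Among sites with a preferred base the log2 ratio over the 67 genes was -1.22 (-1.67 to -0.74), and -1.74 (-2.78 to -0.82) on the shared flow cell.

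The nuclear RNAs Malat1 and Neat1, long noncoding transcripts of speckles and paraspeckles whose 3′ ends form in unusual ways, went the same way on few sites. Malat1 had 16.2 sites per 100000 in INTS9 and 4.89 on the shared flow cell, against 35.4 in INTS11, which is 1 site on the shared flow cell and 12 in INTS11. Neat1 had 18.3 in INTS9 and 9.79 on the shared flow cell, against 32.4 in INTS11. Together they stood at 18.5-fold uniform density in INTS9, 19.7-fold in its HiSeq run and 7.86-fold on the shared flow cell, against 36.3-fold in INTS11. Malat1 was among the 33 genes called toward INTS11. The ratio for both together was 0.509 (0.313 to 0.856) over all INTS9 sites and 0.217 (0.0416 to 0.717) on the shared flow cell. The other 9 libraries had a median of 68.5-fold, so again both were below it.

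The other lists separated the libraries little. Ribosomal protein genes stood at 4.50-fold in INTS9 and 4.62-fold in INTS11 over 76 genes, a ratio of 0.974 (0.750 to 1.28). Immediate early genes, quickly induced by serum, stood at 6.88-fold in INTS9 and 9.02-fold in INTS11, a ratio of 0.763 (0.578 to 1.02), with Ier2 at 6.09 sites per 100000 in INTS9 against 17.7 in INTS11 and Fosl1 at 12.2 in INTS9 against 14.7 in INTS11. Genes hosting snoRNAs stood at 7.52-fold in INTS9 and 10.2-fold in INTS11, translation factor genes at 5.65-fold in INTS9 and 7.34-fold in INTS11, and chaperone genes at 7.42-fold in INTS9 and 7.18-fold in INTS11. Actin cytoskeleton genes stood at 5.70-fold in INTS9 and 5.07-fold in INTS11. Pause and elongation control genes stood at 2.97-fold in INTS9 and 2.55-fold in INTS11, with Aff1, of the super elongation complex, at 21.3 sites per 100000 in INTS9 and 23.6 in INTS11. Cleavage and termination factor genes stood at 2.67-fold in INTS9 and 2.23-fold in INTS11, with Wdr33, a poly(A) signal reader, at 15.2 in INTS9 and 2.95 in INTS11 on 1 INTS11 site. Olfactory receptor genes, silent in fibroblasts, stood at 0.412-fold in INTS9 and 0.498-fold in INTS11. For each of these lists the interval of the ratio held 1.

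Matrix genes and the genes of Integrator and its SOSS partners were the lists higher in INTS9 with an interval that left out 1. Matrix genes stood at 2.96-fold in INTS9 and 2.09-fold in INTS11, a ratio of 1.42 (1.02 to 2.03), which was 1.08 (0.633 to 1.81) on the shared flow cell. The 14 Integrator and SOSS genes found stood at 2.39-fold in INTS9 and 2.36-fold on the shared flow cell, against 1.203-fold in INTS11, a ratio of 1.99 (1.07 to 4.08) and, on the shared flow cell, 1.96 (0.812 to 4.84), on 13 sites there and 11 in INTS11. Single genes rested on few sites, and the INTS9 library was the larger, with 197069 sites against 33939 in INTS11. Ints8 had 17 sites in INTS9 and 1 in INTS11, a ratio of densities of 2.93 (0.459 to 122). Cpsf3l, the mouse gene of INTS11, had 12 in INTS9 and 2 in INTS11, a ratio of densities of 1.03 (0.230 to 9.51). Both intervals held 1. Ints9, the gene of INTS9 itself, was added to the named genes after its values were seen. It had 12 sites in INTS9 and 1 in INTS11. These counts are not scaled to library size, and no difference in density is drawn from them.

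**Figure D5:**
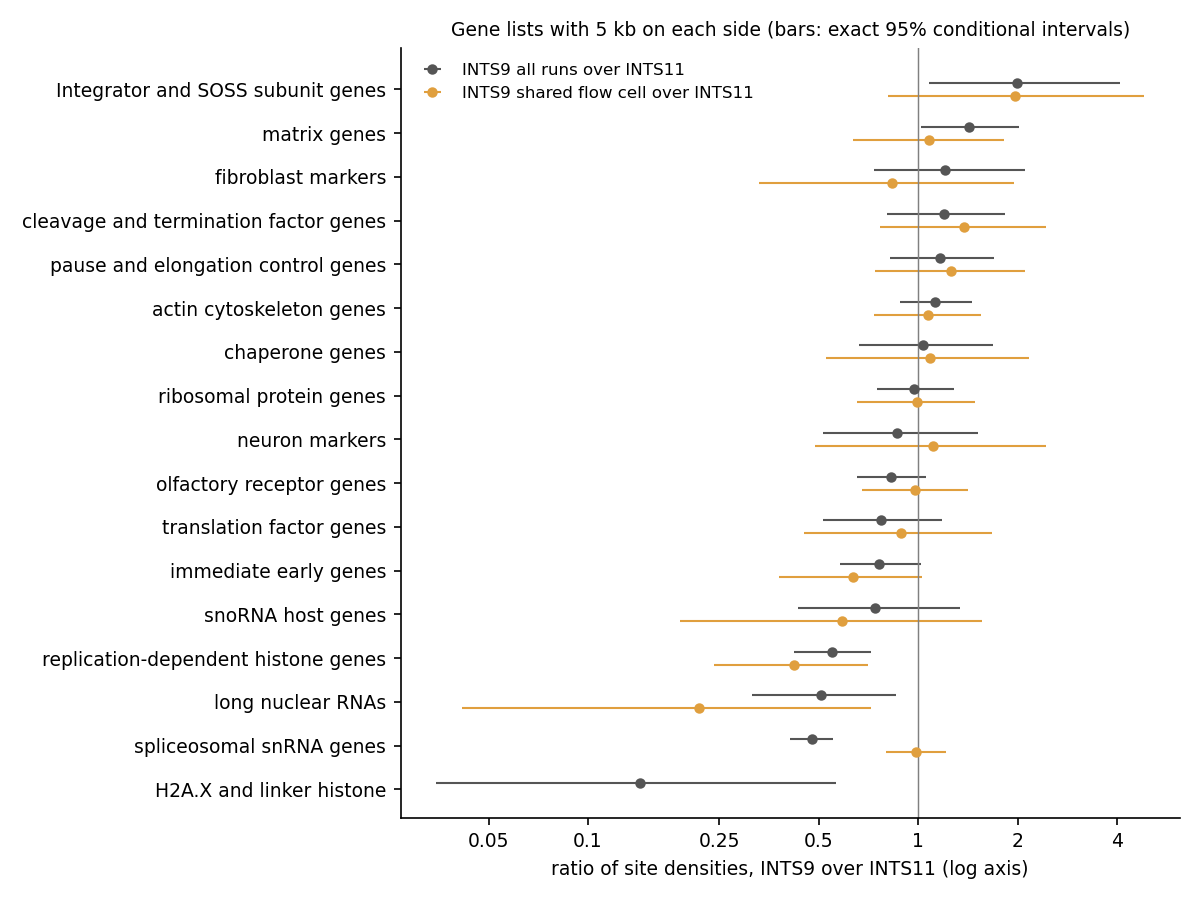
Ratio of site densities, INTS9 over INTS11 (log axis), over the gene lists with at least 5 INTS11 sites, each gene taken with 5 kb flanks, for all INTS9 runs (grey) and for INTS9 on the shared flow cell (orange); bars are exact 95% conditional intervals. The snRNA list stands at 0.476 over all runs and 0.987 on the shared flow cell, while the histone list and the long nuclear RNAs stay below 1 in both; the single found member of the H2A.X list had 0 sites on the shared flow cell and has no orange point.

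At equal size, sites of INTS11 lay closer together over short distances. At 33939 sites each, 7.56% of INTS9 sites (7.14 to 7.88 over 10 draws) and 8.74% of INTS11 sites had another of the same library within 1 kb. On the shared flow cell, at 20430 sites each, the values were 5.31% in INTS9 and 5.94% in INTS11. Over 10 kb the order turned, with 38.2% in INTS9 and 35.2% in INTS11. Across 26398 windows of 100 kb at 20430 sites each, Spearman's rank correlation was 0.256 between INTS9 on the shared flow cell and INTS11, 0.258 between the HiSeq run of INTS9 and INTS11, and 0.313 between the runs of INTS9; windows differ in gene content and mappable length, which all sets share. In windows of 1 Mb the values were 0.643, 0.644 and 0.718. Over 1 kb the order was not the same: at 20430 sites each, 4.29% of sites of the HiSeq run of INTS9 (4.09 to 4.52 over 10 draws) lay within 1 kb of a site of its shared flow cell part, and 4.56% within 1 kb of an INTS11 site, while 4.85% of sites of INTS9 on the shared flow cell (4.63 to 4.97) lay within 1 kb of an INTS11 site.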

How the data were processed

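Each of the deposited files lists integration sites of 1 library, with a chromosome, a position, a strand and a read name followed by counters; per the labels' protocols junctions were amplified by linker-mediated PCR, read in pairs on GAIIx (70 bp) or HiSeq (100 bp) and placed on mm9. For the aligner and filters, the labels used here name none. The first counter was taken as a read number (lowest value 2). Distinct positions on chromosomes 1 to 19 and X were counted; on the minus strand the position was moved by 1 base, since the copied bases were symmetric only then. Runs were read from the read names. Genes came from GENCODE on NCBIM37, the assembly of mm9 (37252 genes), and uniform density used 2555.8 Mb of known bases. Intervals were exact binomial, Poisson or conditional, and Newcombe's for differences. The call of genes was tested on simulated data. Named genes were the 10 with most sites, up to 10 calls in each direction that kept it on the shared flow cell, and the 2 top members of each list. The members and lists were chosen with earlier results of these data known. Alternatives covered reads, merging, shared positions, runs, gene sets and windows; the split by preferred bases was added after seeing the data. PCR reads carry no molecular identifiers. Python 3, numpy, pandas, scipy and pysam were used.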

Additional observations from a re-analysis of the deposited data

How the results depend on the processing

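No paired analysis was possible because each protein has 1 library. Of 284 repeats under other settings (of 36 results), 212 lay within the main interval or, for counts of genes, near the main count. Another 62 moved outside it, and 10 turned the direction of a result whose main interval left out 0. A turn was counted by sign alone, whatever the interval of the repeat. A change of sign in a result whose main interval held 0 was not counted as a turn. The cause was not tested. Differences are INTS9 minus INTS11 in percentage points and ratios are log2 of INTS9 over INTS11; the settings by preferred base were chosen after seeing the data. Within 1 kb of starts the difference was -1.68 on the shared flow cell, -1.59 with a preferred base and -3.16 with both; within 5 kb of starts it turned to -1.24, -1.44 and -3.99. Within 5 kb of ends it was 0.717 with a preferred base and 0.466 with both. Inside genes it was 2.19 on the shared flow cell, 1.39 with a preferred base and 0.00578 with both, and farther than 5 kb from genes -2.95, -1.97 and -0.139. The ratio 1 kb downstream of starts was -0.58 on the shared flow cell, -0.39 with a preferred base, -0.82 with both and -0.34 at genes with no other within 10 kb. From 1 to 5 kb downstream the ratio turned to -0.040, -0.061, -0.21 and -9.24e-05 under the same 4 settings. Without the log, this ratio was 0.972 (0.916 to 1.03) on the shared flow cell and 0.959 (0.914 to 1.01) with a preferred base, and both intervals held 1. The first of 10 equal lengths of genes differed by -3.32 on the shared flow cell, -2.75 with a preferred base and -5.37 with both. In genes of at least 100 kb it differed by -0.185 over all INTS9 runs. The snRNA list was at -0.019 on the shared flow cell, -0.30 there with a preferred base, and -1.95 over gene bodies alone. Matrix genes turned to -0.30 with both, and clustered snRNA and U3 copies to 0.25 on the shared flow cell. Genes higher in INTS9 numbered 17 of 1562 (1.09%) at a minimum of 10 sites per 100000 and 0 of 28 at a minimum of 40. With the minimum set on the 9 other libraries they numbered 9 of 479 (1.88%), 1 of them among the 2. They were 1 of 247 (0.405%) over gene bodies and 11 of 366 (3.01%) on the shared flow cell. With INTS9 thinned to the size of INTS11 they were 3 of 336 (0.893%), 0 of them among the 2. Genes higher in INTS11 numbered 102 at a minimum of 10, 7 at 40, 37 of 479 with the minimum set on the 9 other libraries (17 of them among the 33), 17 over gene bodies and 6 on the shared flow cell. The difference in clustering turned to 3.09 within 10 kb, and was -0.642 on the shared flow cell and -2.21 with a preferred base. The depth of INTS11, 33939 sites, limits single genes.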

Other observations

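The sequence AGCA stood directly before the junction in 0.78% of INTS9 sites, 0.71% of its HiSeq run and 1.41% of its part on the shared flow cell, against 1.46% of INTS11 sites; the other 9 libraries ran from 0.620% to 6.52%. Among sites with the minimum of 2 reads, a preferred base stood in 66.5% in INTS9 on the shared flow cell and 54.4% in INTS11, and among sites with more than 20 reads in 69.9% in INTS9 on the shared flow cell and 59.2% in INTS11. The median fragment was 121 bases in INTS9 and 113 on the shared flow cell, against 154 in INTS11.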
